A study of Mus musculus with 2 samples.

Results

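The 8 genes followed here encode the angiopoietins (*Angpt1* and *Angpt2*), the Tie receptors (*Tek*, which encodes Tie2, and *Tie1*), apelin (*Apln*) and its receptor (*Aplnr*), and the endothelial proteins endocan (*Esm1*) and plasmalemma vesicle-associated protein (*Plvap*). They were picked by name from the 31053 genes of the count matrices and were described across blood endothelial, lymphatic endothelial, mural and fibroblast cells of the mouse intestinal lamina propria. Live cells lacking Ter119, Epcam and CD45 were sorted from C57BL/6 mice, 11 weeks old by the labels, and were sequenced as 1 library per genotype. *ApcMin* mice (*ApcMin*/+;*Lef1* +/+) carry the *ApcMin* allele, which causes intestinal adenomas, and intact *Lef1*. *VApcMinL* mice (*ApcMin*/+;*Lef1* fl/fl; Villin-Cre) carry the same allele and lose *Lef1*, a transcription factor of the Wnt pathway, where Villin-Cre is active. Both groups thus share the *ApcMin* allele, and the Villin promoter drives Cre in the intestinal epithelium and not in the stromal cells measured here. The number of mice pooled in each library is not given in the sources used here.

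In the angiopoietin pathway, angiopoietin-1 from perivascular and mesenchymal cells activates Tie2 on endothelium and holds vessels stable. Angiopoietin-2, stored and released by endothelial cells, acts on the same receptor as an antagonist or a weak agonist depending on the setting, and Tie1 modulates Tie2. Apelin is a secreted peptide of sprouting endothelium that signals through a G protein-coupled receptor, endocan is a proteoglycan known from endothelial tip cells, and the *Plvap* protein forms the diaphragms of fenestrae and caveolae in permeable vessels such as those of the gut.

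Promoters of 4 of the 8 genes were in the RefSeq promoter table and are shown because *Tek* and *Tie1*, both endothelial receptor genes, had different levels in fibroblasts, and because *Apln* and *Esm1* were both highest in the same small endothelial subcluster. Each line gives the 250 bases before the annotated start on the strand of the gene (RefSeq, GRCm38.p6). They lie at chr4:94739039-94739288 (*Tek*, plus strand), chr4:118489850-118490099 (*Tie1*, minus strand), chrX:48034854-48035103 (*Apln*, minus strand) and chr13:113209409-113209658 (*Esm1*, plus strand). The *Tie1* window overlaps the 5′ end of the longer gene span given below. Capitals mark matches on either strand to GGAAG, which is longer than the GGAA core of ETS factor sites, and to ACGTG of hypoxia factor (HIF) sites. They also mark AGATAA of GATA factor sites, TAAACA of forkhead (FOX) factor sites and CTTTGA of TCF/LEF factor sites. No marked match overlaps another.
Tek: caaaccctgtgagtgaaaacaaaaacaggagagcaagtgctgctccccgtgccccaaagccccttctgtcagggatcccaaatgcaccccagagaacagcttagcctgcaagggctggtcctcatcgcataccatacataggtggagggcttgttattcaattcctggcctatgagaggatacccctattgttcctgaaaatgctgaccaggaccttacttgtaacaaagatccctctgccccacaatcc
Tie1: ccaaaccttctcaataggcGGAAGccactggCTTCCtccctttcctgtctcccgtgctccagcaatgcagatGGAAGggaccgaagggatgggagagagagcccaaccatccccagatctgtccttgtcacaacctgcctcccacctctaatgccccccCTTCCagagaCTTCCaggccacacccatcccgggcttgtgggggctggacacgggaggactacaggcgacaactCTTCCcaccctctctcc
Apln: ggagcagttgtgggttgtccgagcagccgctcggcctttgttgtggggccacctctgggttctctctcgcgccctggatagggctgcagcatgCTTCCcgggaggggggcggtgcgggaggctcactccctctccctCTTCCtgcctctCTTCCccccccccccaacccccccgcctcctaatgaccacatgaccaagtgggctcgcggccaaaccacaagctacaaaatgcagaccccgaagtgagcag
Esm1: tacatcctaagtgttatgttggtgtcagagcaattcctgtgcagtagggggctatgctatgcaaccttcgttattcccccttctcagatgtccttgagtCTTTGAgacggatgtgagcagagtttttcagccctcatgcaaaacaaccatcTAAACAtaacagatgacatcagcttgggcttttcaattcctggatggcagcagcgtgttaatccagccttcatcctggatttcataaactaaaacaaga
The *Tie1* window held 6 GGAAG matches and the *Apln* window 3. GGAAG was present in 64.1% of 32817 promoters of this length, and 6 or more matches were present in 0.341%. The *Esm1* window held 1 FOX and 1 TCF/LEF match, found in 12.03% and 13.8% of all promoters. The *Tek* window held none of the marked letters, but the shorter GGAA core, not marked here, occurs in it and in the *Esm1* window. None of the 4 windows held the HIF or GATA letters, which occurred in 16.6% and 9.99% of all promoters. A match is a description of the letters only. *Angpt1*, *Angpt2*, *Aplnr* and *Plvap* had no entry in the table.

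Barcodes with at least 1000 unique molecular identifiers (UMIs) and at most 20% mitochondrial UMIs numbered 7593 in *ApcMin* and 8597 in *VApcMinL*, with medians of 9663 and 6792 UMIs, and 24 barcodes occurred in both libraries. The cells were clustered without the 8 genes and classed by marker genes. Blood endothelial-like cells numbered 141 and 679 (in the order *ApcMin*, *VApcMinL*, as in all pairs below), lymphatic endothelial-like cells 36 and 221, mural-like cells 43 and 88, and fibroblast-like cells 3356 and 3966. The sort did not remove all other cells. Erythroid-like cells made up 22.6% and 6.44% of the kept barcodes and B cell-like cells 11.0% and 5.57%. Plasma-like cells made up 7.88% and 11.5% and epithelial-like cells 1.05% and 4.54%. In each library 11 of 12 blood endothelial, 8 of 8 lymphatic and 12 of 12 pericyte markers were detected in at least 25% of the cells of their own class, as were 12 and 11 of 12 fibroblast markers. Levels are counts per 1000000 UMIs of a class (CPM), with 95% Poisson intervals in parentheses, and they are compared between classes for 1 gene at a time. With 1 library per genotype, no difference between genotypes could be tested, and every interval covers counting error only.

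*Tek* (chr4:94739289-94874976, plus strand, GRCm38) was detected in all 4 classes. Blood endothelial-like cells had the highest level, 205 CPM (175 to 239) and 245 CPM (228 to 263), with a UMI in 60.3% and 57.1% of cells. Lymphatic endothelial-like cells had 143 CPM (103 to 193) and 126 CPM (108 to 146). Mural-like cells had 79.8 CPM (46.5 to 128) and 141 CPM (109.6 to 179), and fibroblast-like cells 61.2 CPM (58.9 to 63.5) and 32.4 CPM (30.7 to 34.2). In *ApcMin* each class overlapped the next in this order, whereas in *VApcMinL* the mural and lymphatic intervals overlapped and the others did not. Plasma-like cells, not known to use the gene, had *Tek* in 0 of 598 cells, which allows up to 0.776 CPM, and in 2 of 991 cells, at medians of 5765 and 2979 UMIs. *Tek* was also low in erythroid-like (0.529 and 0.924 CPM), B cell-like (0.434 and 2.73 CPM) and myeloid-like cells (2.12 and 3.95 CPM). It was not low in every class outside the 4. Glia-like cells had 48.4 CPM from 13 UMIs and 3.07 CPM from 4 UMIs. Acinar-like cells had 20.2 CPM from 3 UMIs in *ApcMin* and 1 UMI in *VApcMinL*. Fibroblasts, the most numerous class, held 89.0% and 54.0% of all *Tek* UMIs in cells.

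*Tie1* (chr4:118471191-118490061, minus strand) was high in both endothelial classes. In blood endothelial-like cells it stood at 371 CPM (329 to 416) and 319 CPM (299.7 to 339), in 80.9% and 66.6% of cells. Lymphatic endothelial-like cells had 319 CPM (258 to 391) and 379.6 CPM (347 to 414), in 91.7% and 81.0% of cells. The endothelial classes overlapped in *ApcMin*, and in *VApcMinL* the lymphatic level was the higher. Unlike *Tek*, *Tie1* was almost unread in fibroblast-like cells, at 0.442 CPM (0.270 to 0.682) and 0.707 CPM (0.474 to 1.02) and in 0.387% and 0.530% of cells, although these had the deepest medians of the 4 classes, 13190.5 and 10032 UMIs.

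**Figure D1:**
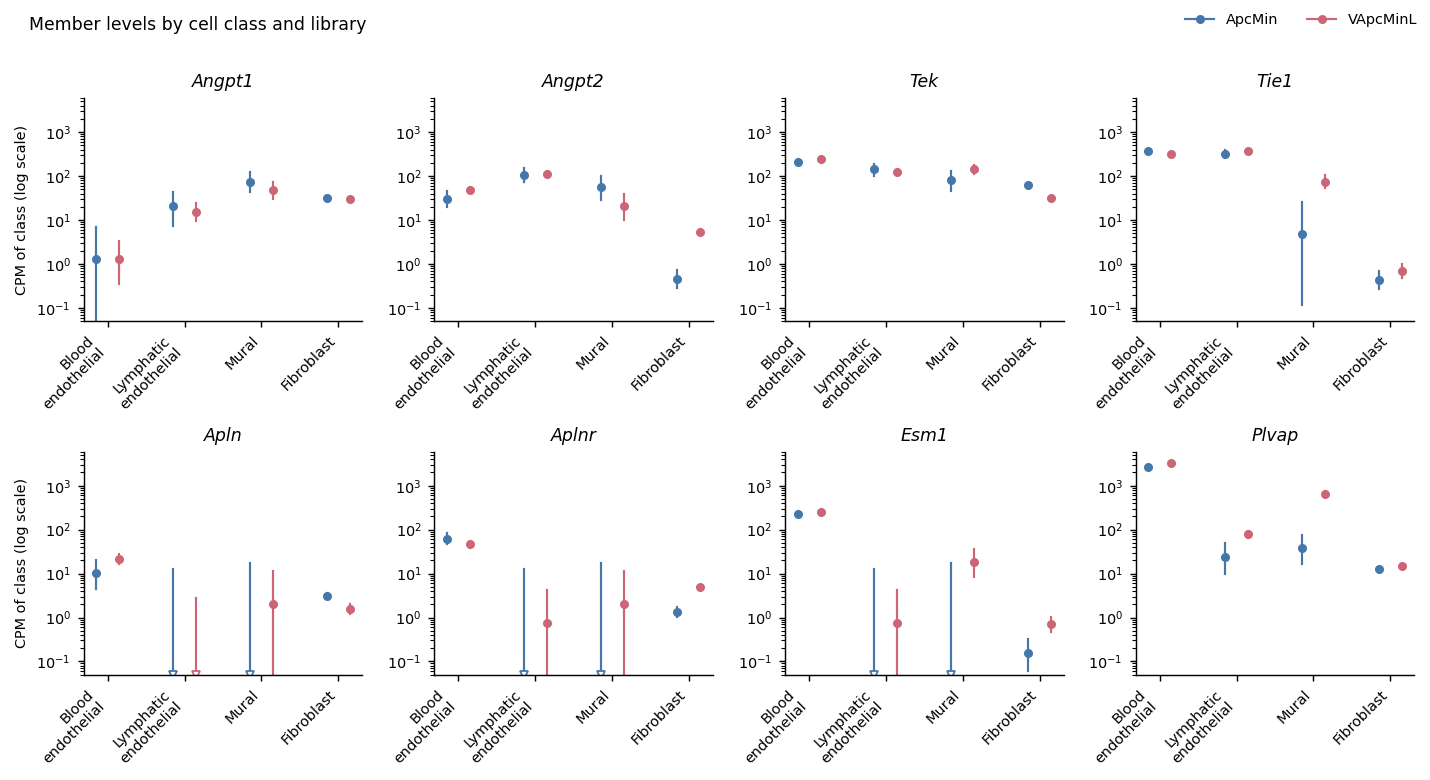
Level of the 8 genes in the 4 cell classes, in CPM on a log axis, with *ApcMin* in blue and *VApcMinL* in red. Points are 1 library each, lines are 95% Poisson intervals and open triangles mark 0 UMIs. *Tie1* drops from 371 CPM in blood endothelial to 0.442 CPM in fibroblast cells of *ApcMin*, *Tek* from 205 to 61.2 CPM, and *Angpt1* is lowest in blood endothelial cells.

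*Angpt1* (chr15:42424723-42676977, minus strand), the ligand gene, was highest outside the endothelium. Mural-like cells had 75.1 CPM (43.0 to 122) from 16 UMIs and 47.7 CPM (30.3 to 71.6) from 23 UMIs. Fibroblast-like cells had 32.4 CPM (30.8 to 34.1) and 30.4 CPM (28.8 to 32.2), and they held 91.3% and 89.8% of all *Angpt1* UMIs. The mural level lay above that of fibroblasts in *ApcMin*, and the intervals overlapped in *VApcMinL*. In *ApcMin* fibroblasts were the higher instead when cells needed at least 500 detected genes or were classed by their own markers. Lymphatic endothelial-like cells had 20.4 CPM and 15.5 CPM. Blood endothelial-like cells had 1 and 4 UMIs, or 1.27 CPM in each library, below the 7.24 CPM and 16.3 CPM of empty droplets.

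Within both sources *Angpt1* was uneven. The mural subcluster led by the contractile genes *Acta2*, *Pln* and *Tagln* had 203 CPM (105 to 355) from 12 UMIs in 7 cells and 107 CPM (48.9 to 203) from 9 UMIs in 10 cells. The mural subcluster led by the pericyte genes *Abcc9* and *Kcnj8* had 26.0 CPM (7.08 to 66.5) from 4 UMIs in 36 cells and 35.2 CPM (19.2 to 59.1) from 14 UMIs in 78 cells. The intervals of the subclusters were apart in *ApcMin* and overlapped in *VApcMinL*, and they do not cover differences between so few cells. Among fibroblast-like cells, the cluster led by *Chodl* and *Grem1*, a BMP antagonist gene, was highest at 56.0 CPM (50.8 to 61.5) and 47.5 CPM (43.0 to 52.5). The cluster led by *Ly6c1* and *Pi16* was lowest at 20.9 CPM (18.9 to 23.0) and 18.5 CPM (16.1 to 21.2), and the intervals of these 2 clusters did not overlap in either library.

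*Angpt2* (chr8:18690263-18741562, minus strand) was highest in lymphatic endothelial-like cells. Their level was 105 CPM (71.6 to 149) from 31 UMIs and 112 CPM (95.3 to 132) from 152 UMIs, in 41.7% and 29.0% of cells. Blood endothelial-like cells had 30.6 CPM (19.6 to 45.5) and 48.7 CPM (41.3 to 57.0), in 11.3% and 9.87% of cells. Mural-like cells had 56.4 CPM (29.1 to 98.5) and 20.8 CPM (9.95 to 38.2), from 12 and 10 UMIs. No 2 classes overlapped in *VApcMinL*, and in *ApcMin* the mural interval overlapped those of both endothelial classes. With every cell thinned to 1000 UMIs, *Angpt2* was found in 8.33% and 8.60% of lymphatic and 3.55% and 2.95% of blood endothelial-like cells.

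*Aplnr* (chr2:85136225-85139923, plus strand) was found in blood but hardly in lymphatic endothelium. In blood endothelial-like cells it was at 62.4 CPM (46.2 to 82.5) from 49 UMIs and 46.1 CPM (38.9 to 54.3) from 145 UMIs, in 19.9% and 13.0% of cells. The 36 lymphatic endothelial-like cells of *ApcMin* had 0 UMIs, which allows up to 10.2 CPM, and the 221 of *VApcMinL* had 1. Mural-like cells had 0 and 1 UMI. Fibroblast-like cells, far more numerous, held 49.2% and 55.2% of all *Aplnr* UMIs in cells, and blood endothelial-like cells 38.9% and 40.4%. Empty droplets held *Aplnr* at 25.8 CPM and 5.34 CPM, below the blood endothelial level in both libraries. With clustering in 1 step at resolution 1.0, mural-like cells were the highest in *VApcMinL*. The mural class then took in a cluster led by *Bmp5* and *Bmp7*, counted as fibroblast-like elsewhere here, which held 65 *Aplnr* UMIs in *VApcMinL*.

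*Apln* (chrX:48025146-48034853, minus strand) was sparse. Blood endothelial-like cells had 10.2 CPM (4.40 to 20.1) from 8 UMIs in 5 cells and 21.6 CPM (16.8 to 27.4) from 68 UMIs in 25 cells. Lymphatic endothelial-like cells had no UMI, which allows up to 10.2 and 2.22 CPM. An unnamed cluster outside the 4 classes, led by *Scg2*, *Thbs2* and *Slpi*, had 31.8 CPM and 10.9 CPM. It held 34.2% and 14.6% of all *Apln* UMIs, blood endothelial-like cells 3.42% and 41.5%, and fibroblast-like cells 59.4% and 39.0%. Fibroblast-like cells had 3.07 CPM (2.58 to 3.62) and 1.56 CPM (1.202 to 1.99), against 2.90 CPM and 3.77 CPM in empty droplets. Within fibroblast-like cells the *Pi16* cluster had 5.74 CPM (4.73 to 6.91) and 4.76 CPM (3.59 to 6.20), with 20.5% and 21.8% of its *Apln* UMIs in 1 cell. With cells thinned to 1000 UMIs, fibroblast-like cells were the highest in *ApcMin*.

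*Esm1* (chr13:113209659-113218098, plus strand) was largely a blood endothelial gene. Its level there was 225 CPM (193 to 261) and 247 CPM (230.1 to 265), in 34.0% and 27.2% of cells, and these cells held 79.7% and 91.4% of all *Esm1* UMIs. Lymphatic endothelial-like cells had 0 and 1 UMI, and fibroblast-like cells 0.155 CPM and 0.707 CPM.

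*Plvap* (chr8:71497765-71511752, minus strand) was found in 89.4% (83.1 to 93.9) and 92.2% (89.9 to 94.1) of blood endothelial-like cells, at 2672 CPM and 3245 CPM. After thinning to 1000 UMIs it was still found in 79.4% and 84.7% of them. Lymphatic endothelial-like cells had 23.8 CPM (9.56 to 49.0) and 78.4 CPM (64.2 to 94.9), and fibroblast-like cells 12.8 CPM and 14.9 CPM. All 4 of these levels were below the 32.8 CPM and 214 CPM of empty droplets in the same library. Free RNA was estimated at 2.21% and 5.28% of the UMIs of lymphatic endothelial-like cells, and its part in these levels was not tested. The estimate is the lowest ratio to empty droplets among the erythroid, plasma and epithelial marker lists. That was the epithelial list in *ApcMin* and the erythroid list in *VApcMinL*.

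The blood endothelial-like cells formed 5 subclusters when clustered again. Subcluster 0 (64 and 220 cells) detected all 8 genes of a capillary list in at least 25% of its cells. Subcluster 2 (39 and 203 cells) was led by *Cxcl10*, *Cxcl9* and other interferon-induced genes together with *Selp*, subcluster 3 (14 and 183 cells) by *Scgb3a1* and *Clca3a1*, and subcluster 6 (21 and 55 cells) by genes including *Fbln5* and *Stmn2* of the arterial list. Subcluster 9 (3 and 18 cells) was led by genes including *Pgf*, *Nid2* and *Kit* and detected 10 of the 11 genes of a tip cell list in at least 25% of its cells. Subcluster 3 made up 9.93% of *ApcMin* and 26.9% of *VApcMinL* blood endothelial-like cells. The shares of the others were 45.4% and 32.4% (subcluster 0), 27.7% and 29.9% (subcluster 2), 14.9% and 8.10% (subcluster 6), and 2.13% and 2.65% (subcluster 9).

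The tip-list subcluster held the highest levels of *Angpt2*, *Apln* and *Esm1*. *Angpt2* was at 834 CPM (381 to 1584) and 573 CPM (452 to 716) there, against at most 33.0 and 37.3 CPM in the other subclusters. *Apln* was at 185 CPM from 2 UMIs and at 283 CPM (200.1 to 388) from 38 UMIs in 10 of 18 cells. *Esm1* was at 834 CPM and 893 CPM.

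Of the receptor genes, *Tek* was lowest and *Aplnr* highest in this subcluster of *VApcMinL*. *Tek* had 0 UMIs in the 3 *ApcMin* cells, which allows up to 278 CPM, and 44.7 CPM (16.4 to 97.2) in *VApcMinL*, against 178 to 293 CPM in the other *VApcMinL* subclusters. *Aplnr* had 0 UMIs in *ApcMin*, with the same limit, and 156 CPM (96.8 to 239) in *VApcMinL*, in 8 of 18 cells, against 10.8 to 49.1 CPM in the other *VApcMinL* subclusters. *ApcMin* cells held *Tie1* at 649 CPM (261 to 1337), and *VApcMinL* cells at 290.3 CPM (206 to 397). In *VApcMinL* the deepest cell, with 16352 UMIs, gave 34 of the 77 *Angpt2* UMIs of this subcluster. The same cell gave 18 of the 38 *Apln* and 45 of the 120 *Esm1* UMIs. The subclusters were formed from other genes of the same cells, and these values are a description.

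Arterial-list cells had the lowest *Esm1* level of the 5 subclusters in both libraries, and less *Plvap* than capillary-list cells. *Esm1* was at 19.7 CPM (2.39 to 71.3) and 24.3 CPM (11.1 to 46.1) there and at 252 CPM and 273 CPM in the capillary-list subcluster. *Plvap* was found in 52.4% and 67.3% of arterial-list cells, against 64 of 64 and 214 of 220 capillary-list cells. Its level was 1135 CPM and 1398 CPM in arterial-list cells and 3192 CPM and 3420 CPM in capillary-list cells. The lowest *Plvap* level in *ApcMin* was that of the tip-list subcluster, 742 CPM from 8 UMIs. *Tie1* ranged from 264 to 649 CPM over the 5 subclusters of *ApcMin* and from 254 to 366 CPM over those of *VApcMinL*.

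**Figure D2:**
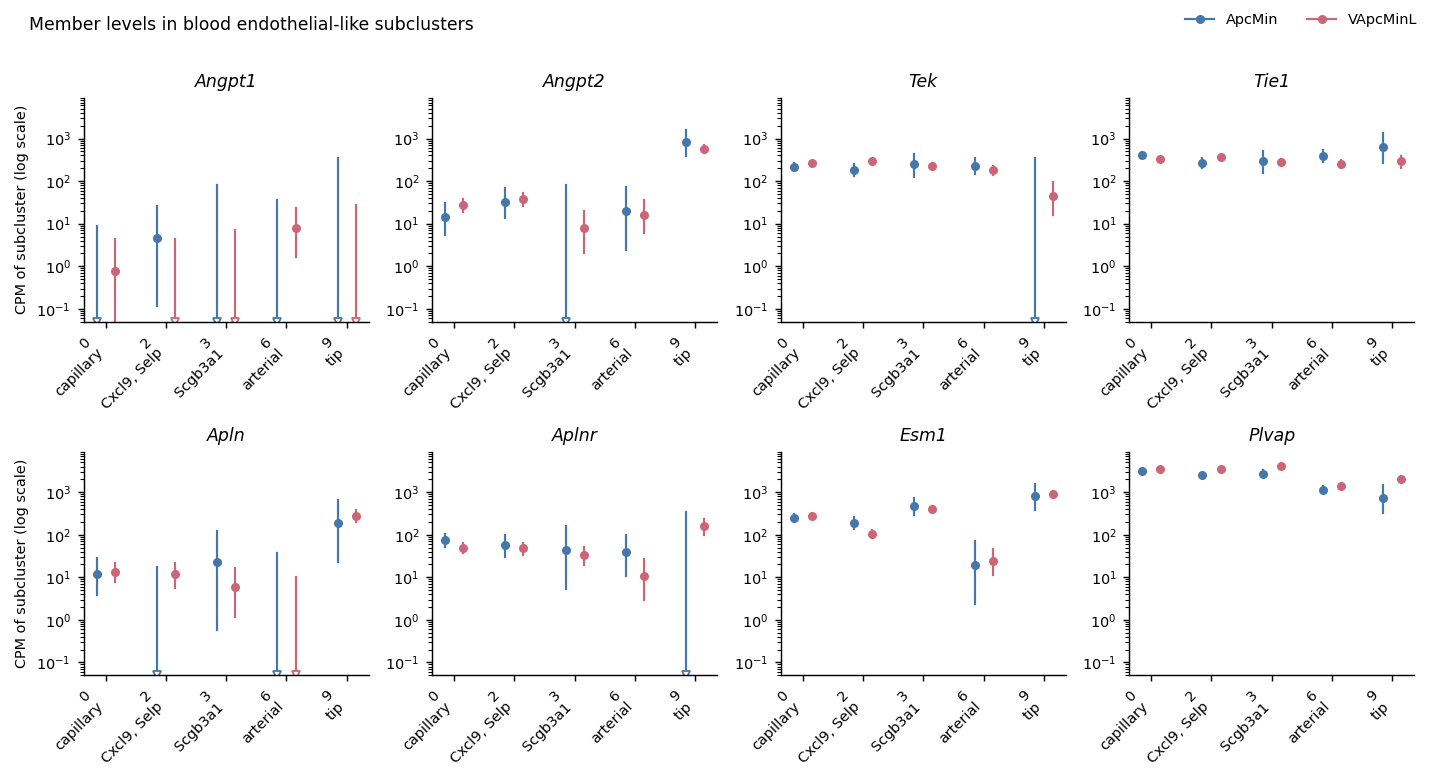
Level of the 8 genes in 5 blood endothelial-like subclusters, in CPM on a log axis, with *ApcMin* in blue and *VApcMinL* in red, 95% Poisson intervals as lines and open triangles for 0 UMIs. *Angpt2* and *Apln* peak in the tip-list subcluster 9, at 573 and 283 CPM in *VApcMinL*, where *Tek* is lowest at 44.7 CPM.

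In single blood endothelial-like cells pairs of the genes were compared by how often both had a UMI. *Apln* was detected in 1 of 16 *ApcMin* cells with an *Angpt2* UMI (3.20% of the others) and in 14 of 67 such cells of *VApcMinL* (1.80% of the others). *Aplnr* was detected in 2 of 5 and 10 of 25 cells with an *Apln* UMI, against 19.1% and 11.9% of the others. *Tie1* was detected in 82.4% and 74.5% of cells with a *Tek* UMI, against 78.6% and 56.0% of those without. In the other direction, *Esm1* was detected in 28.6% and 15.9% of cells with an *Aplnr* UMI, against 35.4% and 28.9% of the others, and *Plvap* in 75% and 83.6% of cells with an *Angpt2* UMI, against 91.2% and 93.1% of the others. None of these differences was tested. Detection of any gene also grows with the depth of a cell, which was not corrected here.

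Between the libraries, most of these genes were close in blood endothelial-like cells. Of the 7 genes with at least 50 UMIs, 1 was past 2-fold, against a background of 4.37% of all 7531 genes with as many UMIs past 2-fold in either direction. That gene was *Apln*, with a ratio of *VApcMinL* over *ApcMin* of 2.12 (1.02 to 5.12), and with the top cell of each library left out the ratio was 2.06 (0.885 to 5.89), from 6 and 50 UMIs. It was under 2-fold without the highest doublet scores (log2 ratio of 0.87), at resolution 1.0 (0.78) and as a mean over cells (0.41). The *Angpt2* ratio was 1.59 (1.03 to 2.56), but its direction turned when cells were weighted equally or thinned.

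The receptors and the structural genes had ratios nearer to 1. *Tek* had a ratio of 1.19 (1.01 to 1.42) and *Tie1* of 0.861 (0.755 to 0.984), so the ratios of the receptor pair lay on opposite sides of 1, although that of *Tie1* turned at resolution 1.0 (log2 ratio of 0.017). *Plvap* had 1.21 (1.16 to 1.27), *Esm1* 1.10 (0.930 to 1.298) and *Aplnr* 0.739 (0.531 to 1.04). The median log2 ratio of all 7531 genes was -0.05 and the median size of the log2 ratio was 0.25. Within subclusters the log2 ratio of *Tek* was 0.67 in subcluster 2 and -0.35 in subcluster 6, and that of *Tie1* was 0.47 and -0.64.

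**Figure D3:**
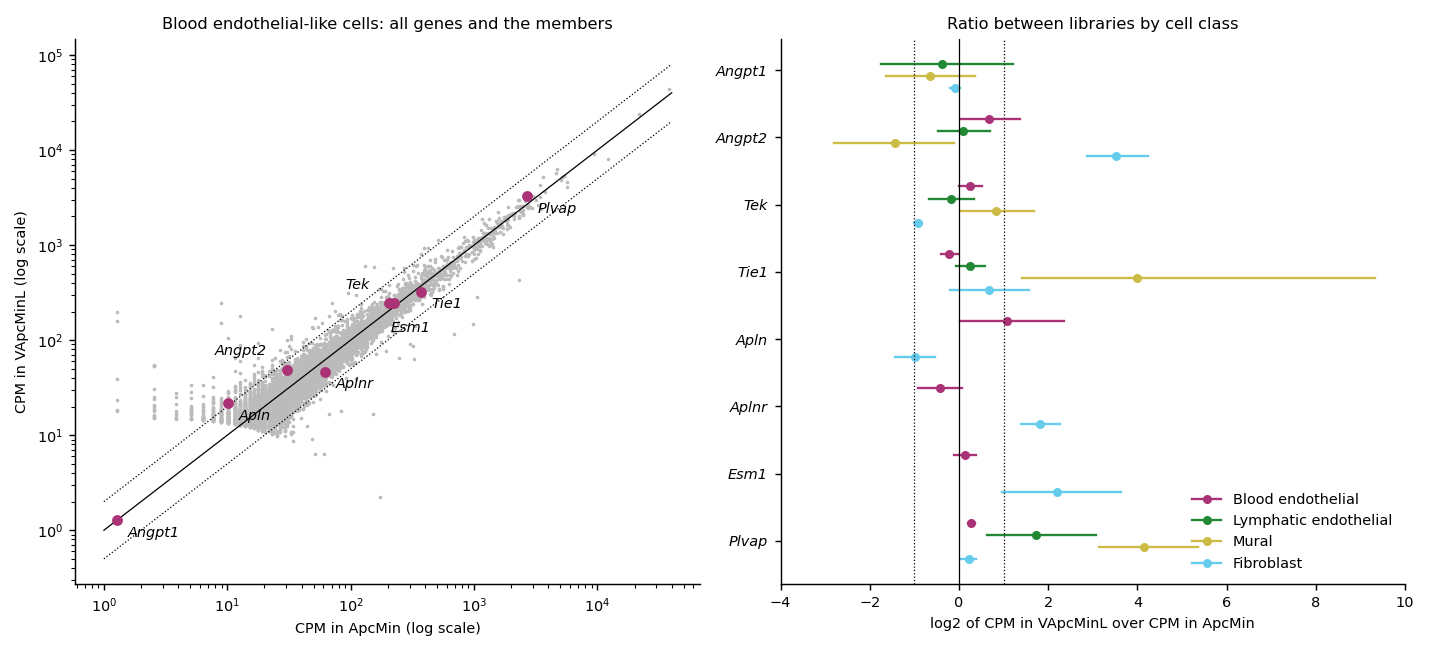
Left, level of each gene with at least 50 UMIs in blood endothelial-like cells (grey) and of the 8 genes (purple), *VApcMinL* against *ApcMin*, in CPM on log axes, with a line at equality and dotted lines at 2-fold. Right, log2 of CPM in *VApcMinL* over CPM in *ApcMin* for genes with at least 20 UMIs in a class, with 95% counting intervals, coloured by class. The widest spread over classes is that of *Angpt2* and *Tie1*: *Angpt2* runs from -1.44 in mural to 3.53 in fibroblast cells and *Tie1* from -0.22 in blood endothelial to 3.99 in mural cells.

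In lymphatic endothelial-like cells 1 of the 4 genes with at least 50 UMIs was past 2-fold, against 6.02% of all 5152 genes. It was *Plvap*, with 7 and 106 UMIs and a ratio of 3.30 (1.55 to 8.40), and *Plvap* was also higher in the empty droplets of *VApcMinL*. Thinned to 1000 UMIs per cell, the *Plvap* log2 ratio turned to -0.30. The ratios of *Tek*, *Tie1* and *Angpt2* were 0.881 (0.626 to 1.27), 1.19 (0.952 to 1.497) and 1.07 (0.722 to 1.63), and each interval includes 1. Other values also differed between these cells. Of 8 genes induced by dissociation 5 were past 2-fold and higher in *VApcMinL*, among them *Atf3* (ratio of 11.1) and *Jun* (5.66). The sum of 6 cycling genes was 13.6 and 214 CPM. Free RNA was the 2.21% and 5.28% given above, but on erythroid markers alone the ratio to empty droplets was higher in *ApcMin*, at 0.143 and 0.0528. Their part in the *Plvap* value was not tested.

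In mural-like cells 1 of the 2 genes with at least 50 UMIs was past 2-fold, against 9.93% of all 2468 genes. It was *Plvap*, at 37.6 CPM and 664 CPM, and *Tie1*, with too few UMIs for the call, had 1 and 36 UMIs. Blood endothelial markers also differed between the libraries in these cells. Their sum was 921 CPM in *ApcMin*, with 1 of 12 at 0, and 8029.5 CPM in *VApcMinL*, with 0 at 0. At least 3 of the 12 were detected in 2 of 43 and 21 of 88 mural-like cells, and those 21 cells held 35 of the 36 *Tie1*, 310 of the 320 *Plvap* and 53 of the 68 *Tek* UMIs. At resolution 1.0 the *Plvap* log2 ratio turned to -0.78.

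Without these cells, 41 and 67 mural-like cells remained. *Tie1* had 0 and 1 UMI in them, and *Plvap* 4.89 CPM and 40.0 CPM. *Tek* stood at 63.6 CPM (33.8 to 109) and 60.0 CPM (33.6 to 99.0), in 19.5% and 14.9% of cells, so it was read in mural-like cells with few endothelial markers in both libraries. *Angpt1* stood at 78.2 CPM (44.7 to 127) and 64.0 CPM (36.6 to 104), and *Angpt2* at 58.7 CPM (30.3 to 103) and 28.0 CPM (11.3 to 57.7). This split was made after the pooled values were seen. It was made on endothelial markers, so lower endothelial genes in the remaining cells follow in part from the split itself. It also followed depth. In *VApcMinL* the 21 cells left out held 231793 UMIs and the 67 others 249930.

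**Figure D4:**
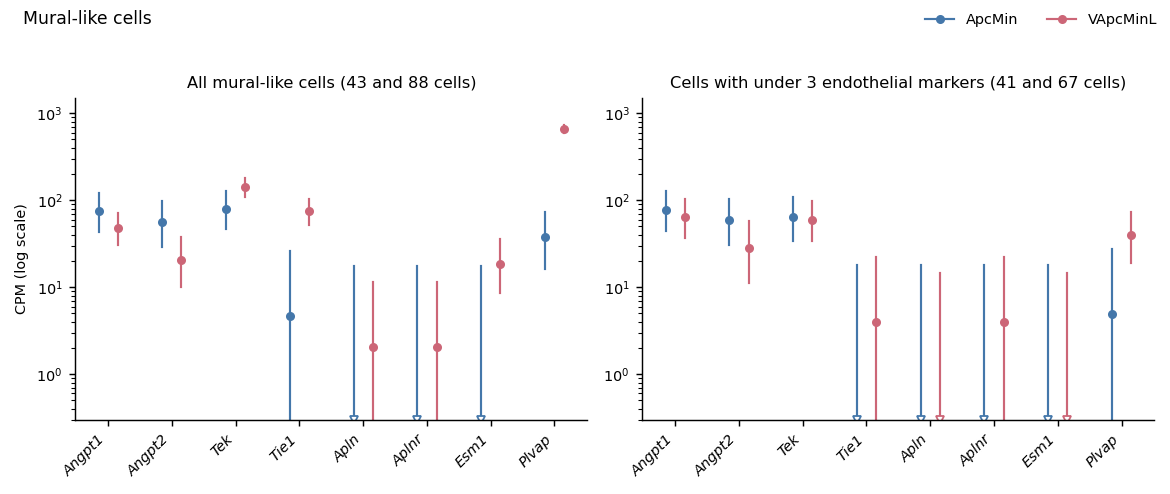
Level of the 8 genes in all mural-like cells (left) and in those with fewer than 3 of 12 blood endothelial markers (right), in CPM on a log axis, *ApcMin* in blue and *VApcMinL* in red, with 95% Poisson intervals and open triangles for 0 UMIs. On the right *Tek* is at 63.6 and 60.0 CPM, and *Plvap* of *VApcMinL* is at 40.0 CPM instead of 664 CPM.

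Among fibroblast-like cells *Tek* was highest in the *Pi16* cluster, at 107 CPM (103 to 112) and 66.6 CPM (62.0 to 71.5), with a UMI in 774 of 1308 and 382 of 873 cells. The cluster led by *Cfd* and *Plau* had 42.2 CPM and 37.9 CPM, the *Grem1* cluster 18.5 CPM and 22.4 CPM, and the cluster led by *Adamdec1* 12.3 CPM and 8.07 CPM. At resolution 1.0 a finer group of 33 and 240 fibroblast-like cells was led by *Cfd*, *Car3*, *Fabp4* and *Adipoq*. The naming rule then called its cluster, with a median of 1667 UMIs, adipocyte-like. *Tek* there was at 20.4 CPM (6.62 to 47.6) and 13.2 CPM (5.71 to 26.1). Of the *Pi16*-cluster cells with a *Tek* UMI, 0.258% and 0.524% had *Tie1*, 0.388% and 1.31% had *Cdh5*, the endothelial cadherin, and 97.9% and 97.1% had *Pdgfra*, a fibroblast receptor gene. *Pi16* itself was found in 77.4% and 62.0% of cells with and 44.2% and 38.1% of cells without a *Tek* UMI, at medians of 16148 and 13921 against 12615 and 11957 UMIs. Free RNA was estimated at 3.72% and 4.54% of the UMIs of fibroblast-like cells, and empty droplets held *Tek* at 36.9 CPM and 31.1 CPM.

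The *Tek* ratio in fibroblast-like cells was 0.530 (0.496 to 0.566). The *Pi16* cluster made up 39.0% of *ApcMin* and 22.0% of *VApcMinL* fibroblast-like cells. Within it the ratio was 0.622 (0.572 to 0.676), whereas within the *Grem1* cluster it was 1.21 (0.972 to 1.52). The *Angpt1* ratio was 0.939 (0.870 to 1.01) and that of *Apln* 0.509 (0.372 to 0.689).

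**Figure D5:**
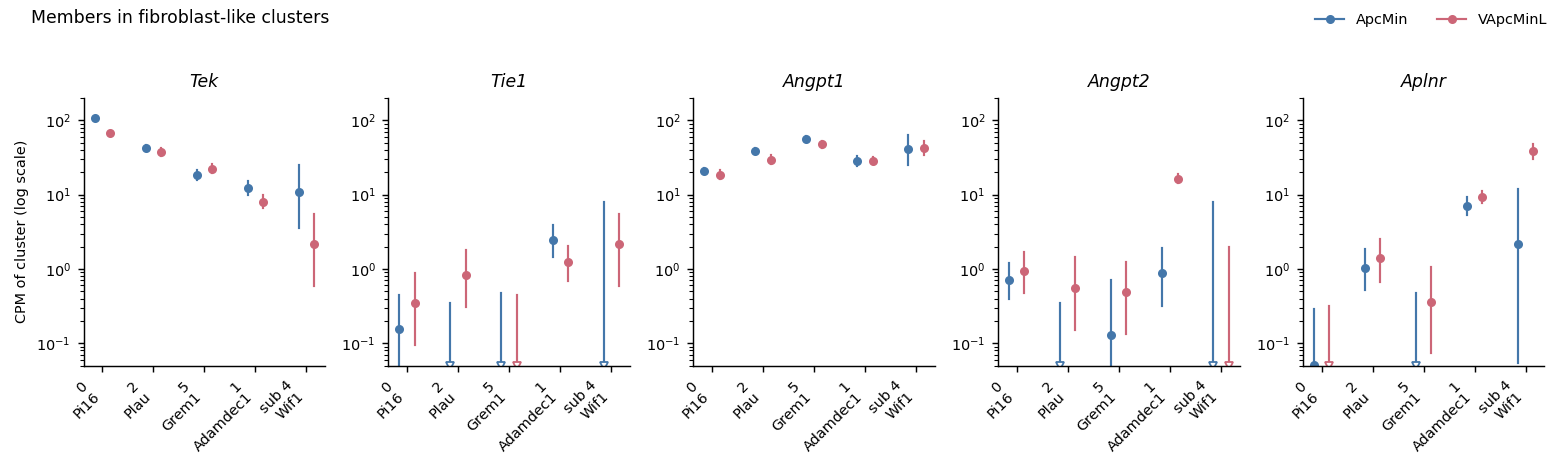
Level of *Tek*, *Tie1*, *Angpt1*, *Angpt2* and *Aplnr* in 5 groups of fibroblast-like cells, in CPM on a log axis, *ApcMin* in blue and *VApcMinL* in red, with 95% Poisson intervals and open triangles for 0 UMIs. *Tek* is highest in the *Pi16* cluster, at 107 and 66.6 CPM, *Angpt2* in the *Adamdec1* cluster of *VApcMinL*, at 16.5 CPM, and *Aplnr* in the *Wif1* subcluster of *VApcMinL*, at 38.4 CPM.

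Fibroblast-like cells held 6 of the genes at 50 UMIs or more, and 2 of these were past 2-fold, *Angpt2* and *Aplnr*, against 6.87% of all 14048 genes. *Angpt2* had 21 UMIs in 15 *ApcMin* cells and 219 UMIs in 78 *VApcMinL* cells, a ratio of 11.5 (7.35 to 19.0). Of these, 6 and 200 UMIs lay in the *Adamdec1* cluster, at 0.870 CPM (0.319 to 1.89) and 16.5 CPM (14.3 to 18.9). At a finer resolution, examined after the pooled values were seen, a cluster led by *Mmp10*, *P2rx1* and *Fgfr2* had 2 UMIs in 1 of 121 *ApcMin* cells and 159 UMIs in 41 of 341 *VApcMinL* cells. With the top cell of each library left out, the *Angpt2* ratio over all fibroblast-like cells was 11.7 (7.19 to 20.1). At resolution 1.0 the naming rule left this *Mmp10* cluster unnamed, outside the fibroblast-like class. There the *Angpt2* log2 ratio of fibroblast-like cells was 1.87, against 3.53.

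Endothelial genes differed between the same fibroblast-like cells in both directions. The sum of the 12 blood endothelial markers was 427 CPM and 343 CPM, and none of the 12 was at 0 in either library. Of these markers, 2 and 1 were detected in at least 25% of the cells, so the sum can rest on few genes. *Esm1* had a ratio of 4.58 (1.96 to 12.4) from 7 and 29 UMIs, *Ptprb* of 2.83 and *Kdr* of 1.96. Lower in *VApcMinL* were *Car8* (ratio of 0.549) and *Ackr1* (0.575). In *VApcMinL*, 4 of 8 capillary, 2 of 5 arterial and 1 of 6 venous genes were at least 2-fold higher, against the 6.87% of all genes past 2-fold either way, among them *Cd36* (ratio of 6.70), *Rgcc* (2.85), *Stmn2* (4.51) and *Lrg1* (4.66), and the median log2 ratio of the capillary list was 1.15. In the *Mmp10* cluster *Tie1* was at 11.2 CPM and 3.33 CPM and *Plvap* at 132 CPM and 62.7 CPM. The part of endothelial RNA in the *Angpt2* and *Aplnr* values was not tested.

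*Aplnr* had 62 UMIs in 35 *ApcMin* and 198 UMIs in 99 *VApcMinL* fibroblast-like cells, a ratio of 3.53 (2.64 to 4.77). The log2 ratio, 1.82, was 2.92 at resolution 1.0, 1.32 as a mean over cells and 3.50 with the empty-droplet profile subtracted. The *Adamdec1* cluster held 49 and 114 of these UMIs, its ratio was 1.32 (0.937 to 1.89), and it made up 16.9% and 33.6% of fibroblast-like cells. The finer cluster led by *Ednrb*, *Sox6*, *Bmp3*, *Bmp7* and *Bmp5* had 50.6 CPM (31.7 to 76.6) in 9 of 32 and 77.2 CPM (59.6 to 98.4) in 35 of 85 cells, and these intervals overlap one another. Its *VApcMinL* interval lay above that of blood endothelial-like cells, and its *ApcMin* interval overlapped theirs. A subcluster led by *Wif1* and *Itgbl1* had 1 UMI in 31 *ApcMin* cells and 71 UMIs in 133 *VApcMinL* cells, or 2.16 CPM and 38.4 CPM. The *Pi16* cluster had 1 UMI in *ApcMin* and 0 in *VApcMinL*, which allows up to 0.260 CPM.

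In blood endothelial-like cells, the other genes of the pathways are to be read against the 4.37% of all 7531 genes past 2-fold. Of 7 partners of the Tie receptors with at least 50 UMIs, 0 were past 2-fold, with a median log2 ratio of -0.12. *Ptprb*, which encodes the phosphatase of Tie2, had 2089 and 2041 CPM, *Klf2*, a flow-induced transcription factor gene, 1349 and 1091 CPM, and *Itgb1*, an integrin gene, 512 and 471 CPM. Of 4 apelin partners 0 were past 2-fold, with a median of 0.21, among them the hypoxia factor gene *Epas1* (1001 and 1045 CPM), the G protein gene *Gnai2* (1087 and 813 CPM) and the protease gene *Furin* (109.5 and 140.3 CPM). The second ligand gene of the apelin receptor, *Apela*, had 0 UMIs in these cells. Only 1 of 6 angiopoietin-like genes had 50 UMIs, *Angptl4* (22.9 and 13.7 CPM), and it was not past 2-fold. Of 8 caveolar genes 0 were past 2-fold, with a median of -0.08 (*Cavin2* 1116 and 873 CPM, *Ehd4* 624 and 629.9 CPM, *Cav1* 665 and 570.4 CPM).

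Among genes with at least 50 UMIs in blood endothelial-like cells, the arterial, venous and tip cell lists held those past 2-fold, against 4.37% of all genes, and each of these was higher in *VApcMinL*. Of 8 arterial genes 3 were, *Sema3g* (85.3 and 181 CPM), *Gja4* (40.8 and 95.8 CPM) and *Gja5* (11.5 and 24.5 CPM), with a median log2 ratio of 0.84, while *Efnb2* had 303 and 297 CPM and *Fbln5* 118 and 201 CPM. Of 6 venous genes 3 were, the selectin genes *Selp* (49.7 and 135 CPM) and *Sele* (11.5 and 29.3 CPM) and *Lrg1* (24.2 and 65.2 CPM), with a median of 0.92, while *Vwf* had 87.9 and 124 CPM and *Vcam1* 65.0 and 89.1 CPM. Of 11 tip cell genes 2 were, *Plaur*, the urokinase receptor gene (70.1 and 246 CPM), and *Pgf*, a VEGF family gene (10.2 and 22.0 CPM), with a median of 0.31, while *Pdgfb* had 249.7 and 222 CPM, *Mcam* 195 and 220.5 CPM and *Dll4* 171 and 222 CPM. Of 8 capillary genes 0 were past 2-fold, with a median of -0.29, and *Kdr*, the main VEGF receptor gene, had 1853 and 1486 CPM, *Cd36* 1329 and 1337 CPM and *Gpihbp1* 1321 and 1123 CPM. In the same blood endothelial-like cells, 0 of 8 genes induced by dissociation were past 2-fold, with a median of 0.03 (*Egr1* 3418 and 3186 CPM, *Hspa1a* 2255 and 2969 CPM, *Jun* 3308 and 2641 CPM), and 0 of 6 cycling genes had 50 UMIs.

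Over 27 sums of a class and a library, which share 2 libraries and differ in depth, the genes most like each of the 8 by Pearson r of log2(CPM + 10) were described without a test. *Tie1* was closest to *Sox18*, *Emcn* and *She* (r of 0.993, 0.993 and 0.989), and *Plvap* to *Clec14a*, *Flt1* and *Notch4* (r of 0.964, 0.958 and 0.950). *Esm1* was closest to *Fam167b*, *Exoc3l2* and *Alox12* (r of 0.973, 0.972 and 0.964), and *Aplnr* to *BC018473*, *Alox12* and *Scgb3a1* (r of 0.954, 0.947 and 0.941). *Tek* was closest to *Ebf3*, *Slfn5* and *Lrrc32* (r of 0.941, 0.922 and 0.918), and *Apln* to *Car8*, *Jam2* and *Col13a1* (r of 0.935, 0.919 and 0.860). The angiopoietin genes had separate neighbours, with *Angpt1* closest to *Itga8*, *Cacna2d1* and *Gucy1a2* (r of 0.883, 0.882 and 0.878) and *Angpt2* to *Galnt18*, *Scarf1* and *Dock6* (r of 0.967, 0.926 and 0.922).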

How the data were processed

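The authors deposited, for each library, a matrix of UMI counts per gene and barcode made with Cell Ranger from 10x 3′ libraries (version 2.1.1 per the submitters' processing notes and 3.1.0 per the file headers) on mm10, with all 6794880 barcodes kept. Tissue had been treated with EDTA for 20 minutes and Liberase for 60 minutes at 37 °C. From these counts, barcodes with at least 1000 UMIs and at most 20% mitochondrial UMIs were kept, more than the study kept, and the totals were 93203061 and 101609269 UMIs. Cells were integrated and clustered in Seurat 5.3.0 (20 components, resolution 0.2, then 0.5 within the endothelial and smooth muscle clusters) without the 8 genes. The fibroblast clusters were not clustered again, and the *Wif1* subcluster, classed as fibroblast-like, came from the second step. The naming rule was settled after the clusters were seen. Scrublet called 0 and 1 doublets and so had not worked, and doublets were kept, with 461 and 591 highest-scoring cells left out in an alternative. Empty droplets were barcodes with at most 100 UMIs.

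For each class in each library, the summed UMIs were given as CPM with exact Poisson intervals, shares with exact Clopper-Pearson intervals, and ratios with exact conditional binomial intervals. A count of 0 was set at 3 counts for a limit. A gene was past 2-fold at a ratio of at least 2 either way with at least 50 UMIs. No test was made. The members and gene lists were chosen with earlier results of these data known. Named were all 8 genes, the 3 genes of each list with the most UMIs in blood endothelial-like cells with every gene past 2-fold, and the 3 genes most like each member; other genes were named after their values were seen. The scripts were tested on simulated data with known ratios. Alternatives changed the cell filters, doublets, classing, clustering resolution, weighting, free RNA subtraction and depth.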

Additional observations from a re-analysis of the deposited data

Results flagged for a closer look

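The log2 ratio of *VApcMinL* over *ApcMin* had opposite signs in different classes for 4 genes. For *Angpt2* it was 0.67 in blood endothelial-like, -1.44 in mural-like and 3.53 in fibroblast-like cells. For *Tek* it was 0.25, 0.82 and -0.92 in the same classes. For *Tie1* it was -0.22 in blood endothelial-like and 3.99 in mural-like cells, and for *Apln* it was 1.09 in blood endothelial-like and -0.98 in fibroblast-like cells. The differences between classes were not tested. Among mural-like cells of *VApcMinL*, those with endothelial markers held 35 of 36 *Tie1* UMIs. Without these cells the log2 ratio of *Tek* in mural-like cells was -0.083. The sign of *Tek* in mural-like cells turned under 4 other settings, that of *Angpt2* turned in blood endothelial-like cells as a mean over cells (-0.036) and thinned (-0.62), and in mural-like cells by own markers (0.48), and that of *Tie1* turned in blood endothelial-like cells at resolution 1.0 (0.017) and within subcluster 2 (0.47).

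A pair of ligand genes was read in classes outside the comparisons, above the level of empty droplets. *Apln* was at 31.8 CPM in *ApcMin* and 10.9 CPM in *VApcMinL* in an unnamed cluster led by *Scg2*, *Thbs2* and *Slpi*, in 28.1% and 11.1% of its cells. *Angpt1* was at 23.5 CPM in the *ApcMin* cells of that cluster and at 10.2 CPM in *ApcMin* myeloid-like cells, where 1 cell gave 27.9% of the UMIs.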

How the results depend on the processing

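No paired analysis was possible because only 1 library was made per genotype. All values here are log2 ratios of *VApcMinL* over *ApcMin* unless named otherwise, and where a value moved or turned the cause was not tested. In blood endothelial-like cells, *Angpt2* turned to -0.036 as a mean over cells, -0.62 with each cell thinned to 1000 UMIs and -0.29 within subcluster 6. There *Tie1* became 0.017 at resolution 1.0, 0.47 within subcluster 2 and -0.64 within subcluster 6, and *Tek* 0.67 and -0.35 within those subclusters. *Plvap* became 0.20 without the highest Scrublet scores, 0.41 at resolution 1.0, 0.35 as a mean over cells, 0.0994 within subcluster 0 and 0.49 within subcluster 2. *Aplnr* became 0.15 thinned and -1.87 within subcluster 6, and *Esm1* 0.43 thinned and -0.83 within subcluster 2. The genes past 2-fold numbered 185 thinned and 1565 with a minimum of 10 UMIs, against 329.

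In lymphatic endothelial-like cells, thinning gave 2.14 for *Tek*, 1.11 for *Tie1* and -0.30 for *Plvap*, and the mean over cells -0.77 for *Angpt2*. In mural-like cells, *Tek* turned to -0.11 with cells classed by their own markers, -0.92 at resolution 1.0, -0.10 as a mean over cells, -0.55 thinned and -0.083 without cells with endothelial markers. *Angpt1* became 0.78 with at least 500 detected genes and, by own markers, 2.06, *Angpt2* 0.48 by own markers and *Plvap* -0.78 at resolution 1.0. In fibroblast-like cells, *Angpt1* became -0.35 thinned and -0.38 and -0.23 within clusters 2 (*Plau*) and 5 (*Grem1*), *Tek* 0.28 within cluster 5, and *Plvap* -1.15 with the empty-droplet profile subtracted and -0.70 within cluster 1 (*Adamdec1*). The class with the highest level changed from mural to fibroblast for *Angpt1* of *ApcMin* (at least 500 genes, or own markers), from blood to lymphatic endothelial for *Tie1* of *ApcMin* and from blood endothelial to mural for *Aplnr* of *VApcMinL* (both at resolution 1.0), and from blood endothelial to fibroblast for *Apln* of *ApcMin* (thinned). At resolution 1.0 the mural-like class took in the *Bmp7* cluster, otherwise fibroblast-like, the *Mmp10* cluster was left unnamed and the *Adipoq* cluster was named adipocyte-like. The within-cluster and endothelial-marker settings were chosen after seeing the data. Low counts limit *Apln*, *Aplnr* and all mural and *ApcMin* lymphatic values.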
